A study of Mus musculus with 24 samples.

Results

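The passage from CT22 to CT2 takes the mouse liver from the last hours of the subjective night into the first hours of the subjective day, when these nocturnal animals go to rest. It was examined in the 8 of 24 liver RNA-seq libraries whose titles give CT22 or CT2, 4 at each time, with 2 WT and 2 ΔRRE libraries among each 4. Compared were the 11244 of 54733 genes whose FPKM averaged 1 or more across all 24 libraries. All animals were male mice of strain C57BL/6 whose ages were not given in the labels. WT mice carried the intact gene, and ΔRRE mice were homozygotes of a CRISPR-Cas9 line that lacks both ROR/REV-ERB response elements (RREs) in the 5′-UTR region of *Bmal1*, which the files list as Arntl. CT is circadian time, counted from the start of the subjective day in constant darkness, and each time point comes from other animals, so a change is a difference between mice and not a course within 1 mouse. Nothing in the labels says which animals shared a litter or a day of collection, and the order in which CT22 and CT2 were collected for sequencing was not stated. CT2 may have been taken before CT22. The p-values therefore measure the spread between these libraries.

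The values are FPKM, counts of fragments scaled to transcript length and to the mapped fragments of the library, and their sums lay between 554170 and 624746 per library over the series. The number of reads behind a single value is unknown, and no counting error is given. A log2 change, given with its standard error (SE), is the mean at CT2 minus the mean at CT22 of log2(FPKM + 0.1), with both genotypes together and genotype as a term, fitted with limma. This scale understates the change of genes with low values. A gene was called at a Benjamini-Hochberg adjusted p under 0.05, and only called genes are said to rise or fall.

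In the liver clock, the activators BMAL1 and CLOCK bind E-boxes and drive the *Per*, *Cry*, *Rev-erb*, *Dbp* and *Tef* genes. PER and CRY proteins then inhibit the activators, while REV-ERBs repress and RORs activate genes that carry RREs, *Bmal1*, *Cry1* and *E4bp4* among them. DBP and TEF activate, and E4BP4 represses, genes with a D-box. In a nocturnal animal, the early subjective day follows the main hours of feeding.

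Few genes passed when they were tested one by one. Of the 11244 genes, 1 rose (0.00889%), 0 fell, and the smallest adjusted p after that was 0.0612 in limma's test. The gene that rose was Gm26712, an annotated pseudogene with an on-or-off pattern over the series that is described last. At an unadjusted p under 0.05 there were 1182 genes (10.5%), where 562.2 would pass if no gene differed. Of these, 841 were higher at CT2 (7.48% of all genes) and 341 lower (3.03%). That split depended on the scale of the libraries. All genes together were shifted up at CT2 by a median of 0.08 on the log2 scale, and 66.2% had a log2 change above 0 (50.1% after the rescaling described next). With the libraries brought to a common scale by median-of-ratios factors (called rescaling here), 388 genes were higher and 582 lower, 40% of them higher in place of 71.2%. The rescaled fit called 1 gene higher and 4 lower, among them Tef (adjusted p = 0.0398), Pisd-ps1 (0.0437) and Ces1d (0.0491). Changes of more than 1 on the log2 scale were seen in 131 genes, of which 48 were higher and 83 lower at CT2.

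Set beside the other steps of the day, this one had the smallest count of called genes in the fits of 8 libraries on the deposited scale. From CT2 to CT6 there were 2, from CT6 to CT10 there were 108, and from CT10 to CT14 there were 327. From CT14 to CT18 there were 71, and from CT18 to CT22 there were 200. Neighbouring steps share the libraries of 1 time point, and the counts were not tested against each other. It also had the smallest count at an unadjusted p under 0.05, with 1182 here, 1214 from CT2 to CT6 and between 1582 and 2150 at the other steps. With all 24 libraries in 1 model, 3 genes were called lower at CT2 and 0 higher, against 30 calls from CT2 to CT6 and between 176 and 803 at the other steps. After rescaling the count was 5, above the 2 of the next step.

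**Figure D1:**
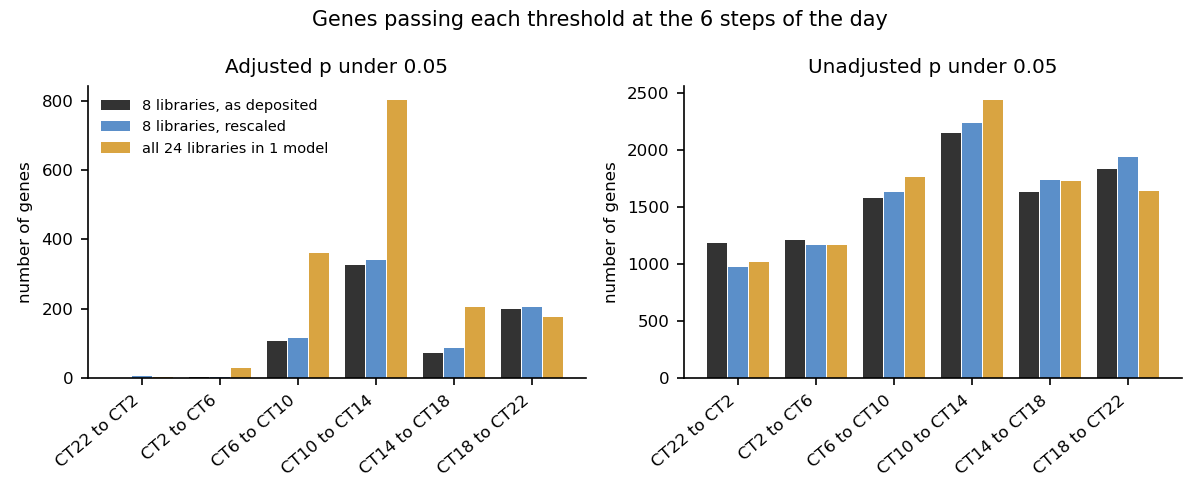
Number of genes (y axis) with an adjusted p under 0.05 (left) and an unadjusted p under 0.05 (right) at each step between neighbouring time points (x axis), from limma on the 8 libraries of the step as deposited, the same libraries rescaled by the median of ratios, and all 24 libraries in 1 model. From CT22 to CT2 the adjusted counts are 1, 5 and 3, and from CT10 to CT14 they are 327, 340 and 803.

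Of 12 E-box-controlled repressors and D-box factors, 11 passed the filter, and 8 of them were lower and 3 higher at CT2, with a median log2 change of -1.14 against 0.08 over all genes tested. The list median was -0.54 with 1 FPKM added in place of 0.1, and -0.71 for the 9 genes that averaged 1 FPKM or more over the 8 libraries. None was called in this fit. At an unadjusted p under 0.05, 6 were lower, where 3.03% of all genes were, and 1 was higher, where 7.48% of all genes were. After rescaling, 7 were lower (5.18% of all genes) and 1 higher (3.45%). Whichever of the 8 libraries was left out, the count of lower genes was 6 or 7, and it was 4 of the 9 genes averaging 5 FPKM or more. WT and ΔRRE had list medians of -1.08 and -0.99.

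Tef, a D-box activator of the PAR bZIP family, came closest to the threshold. It measured 14.0 and 18.2 FPKM in the 2 WT libraries of CT22 and 6.58 and 6.39 FPKM in those of CT2. In ΔRRE it measured 14.0 and 18.4 FPKM at CT22 and 7.64 and 8.40 FPKM at CT2. The groups did not overlap in either genotype, and the log2 change was -1.14 (SE 0.14, limma adjusted p = 0.0612). Over all settings tried its adjusted p lay between 0.0162 (all 24 libraries in 1 model) and 0.275 (without WT CT22 replicate 2), and the log2 change between -1.25 and -1.03. It was also called after rescaling (adjusted p = 0.0398).

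The RefSeq promoter table (GRCm38.p6) holds the 250 bases before and 50 after a gene's start for 10 of the 12 genes of this list. The E-box CACGTG was found in 4 of the 10, Tef, Per1, Ciart and Bhlhe41, against 8.09% of the 27025 genes in the table and 12.2% of those tested here. The D-box TTATGTAA, on either strand, was found in 1 of the 10, Per3, against 1.11% of all. The windows of Dbp, Nr1d1, Nr1d2, Cry2 and Hlf held neither of these letters. The sequences below show these letters in genes that were lower at CT2, with Cry1 from the list of RRE-controlled genes added, read 5′ to 3′ on the gene's strand with the motif in capitals. Ciart held 3 matches, of which 2 are shown. A match is a description of the letters and not of binding.
Tef (chr15:81802536-81802561, forward strand): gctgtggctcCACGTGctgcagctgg
Tef, second start (chr15:81811266-81811291, forward strand): cctggcccagCACGTGtctacatcgt
Per1 (chr11:69098773-69098798, forward strand): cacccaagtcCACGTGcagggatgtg
Ciart (chr3:95882329-95882354, reverse strand): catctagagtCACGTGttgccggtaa
Ciart (chr3:95882271-95882296, reverse strand): cagggggaggCACGTGcagaaccgca
Cry1 (chr10:85185099-85185124, reverse strand): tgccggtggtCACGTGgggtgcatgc
Per3 (chr4:151044853-151044880, reverse strand): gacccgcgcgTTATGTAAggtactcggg
Per3 (chr4:151044806-151044833, reverse strand): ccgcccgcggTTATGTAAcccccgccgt

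Among the E-box repressors, Per1 measured 1.02 and 2.14 FPKM at CT22 and 0.431 and 0.492 FPKM at CT2 in WT. In ΔRRE it measured 3.74 and 1.88 FPKM at CT22 and 0.613 and 0.863 FPKM at CT2. All 4 libraries of CT2 lay below all 4 of CT22, with a log2 change of -1.62 (SE 0.32, limma adjusted p = 0.272). Per3 was lower by a similar amount, from 1.02 and 1.36 to 0.277 and 0.311 FPKM in WT and from 0.553 and 1.34 to 0.262 and 0.341 FPKM in ΔRRE (log2 change -1.49, SE 0.38). Per2 was lower in WT, from 4.90 and 4.59 to 1.83 and 2.63 FPKM, while its ΔRRE libraries overlapped, with 1.91 and 2.61 FPKM at CT22 and 1.02 and 2.91 FPKM at CT2. Its pooled log2 change was -0.71 (SE 0.32).

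Ciart, which encodes the repressor CHRONO, lay below 1 FPKM at both times, with 0.877 and 0.737 FPKM at CT22 and 0.141 and 0.193 FPKM at CT2 in WT. In ΔRRE it measured 0.450 and 0.515 FPKM at CT22 and 0.0478 and 0.121 FPKM at CT2. Its log2 change was -1.73 (SE 0.48), with 1 FPKM added in place of 0.1 it was -0.54, and it was called in 1 alternative, the prior without trend (adjusted p = 0.0247). Bhlhe40, the E-box repressor DEC1, measured 20.7 and 34.9 FPKM at CT22 and 10.6 and 11.9 FPKM at CT2 in WT, and 33.9 and 24.9 against 5.66 and 14.9 FPKM in ΔRRE (log2 change -1.45, SE 0.29). Its relative Bhlhe41 was below the filter, at 0.0964 and 0.49996 against 0.0611 and 0.171 FPKM in WT, and was not tested. Cry2 and Hlf had pooled log2 changes of -0.23 and 0.27. Their libraries overlapped in WT (0.12 and -0.06) and separated in ΔRRE, where Cry2 was lower (-0.58) and Hlf higher (0.59). The difference between the genotypes had a limma adjusted p of 0.996 for both.

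Dbp, the namesake D-box activator, was low at both times, with 0.873 and 1.34 FPKM at CT22 and 0.836 and 0.261 FPKM at CT2 in WT, and 1.72 and 2.18 against 0.367 and 0.679 FPKM in ΔRRE. Its log2 change was -1.39 (SE 0.39). For Tef, Per1, Per3, Dbp, Ciart, Bhlhe40 and Bhlhe41, CT2 had the lowest mean of the 6 time points in both genotypes. Usp2, a clock-controlled deubiquitinase from the list of outputs, had a log2 change of -2.36 (SE 0.40, limma adjusted p = 0.173). Its 4 libraries of CT2 lay below all 4 of CT22. It measured 2.64 and 5.16 FPKM at CT22 and 0.206 and 0.555 FPKM at CT2 in WT, and 2.79 and 3.17 against 0.679 and 1.15 FPKM in ΔRRE. It was called with all 24 libraries in 1 model (adjusted p = 0.0487). With 1 FPKM added in place of 0.1, the log2 changes of these low genes were smaller, -0.94 for Per1, -0.65 for Per3, -0.71 for Dbp and -1.43 for Usp2.

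Nr1d1, the gene of REV-ERBα, was the member of this list that was higher at CT2 with an unadjusted p under 0.05. It measured 1.55 and 0.898 FPKM at CT22 and 20.8 and 3.89 FPKM at CT2 in WT, and 1.58 and 1.33 against 12.4 and 2.81 FPKM in ΔRRE. Every library of CT2 lay above every library of CT22, but the 2 libraries of CT2 were far apart in each genotype, replicate 1 being the higher in both. The log2 change was 2.40 (SE 0.58, limma adjusted p = 0.323). Its paralogue Nr1d2 measured 4.06 and 2.94 against 8.40 and 3.27 FPKM in WT and 5.32 and 4.79 against 9.96 and 2.14 FPKM in ΔRRE, so that its groups overlapped. The means of both genes were higher at CT6 than at CT2 in each genotype.

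**Figure D2:**
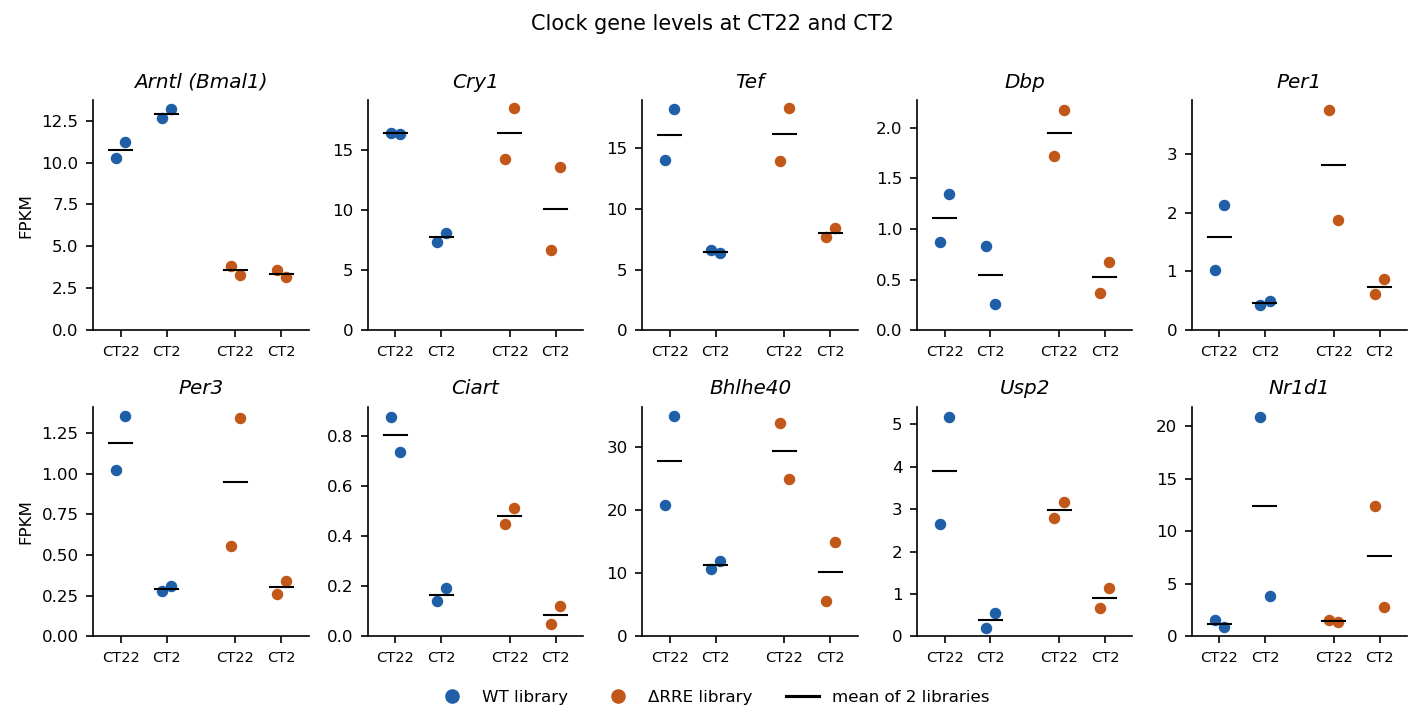
FPKM (y axes, linear and starting at 0, each gene on its own scale) of 10 clock and clock-controlled genes in the single WT and ΔRRE libraries of CT22 and CT2, with a line at the mean of 2 libraries. Tef, Per1, Per3, Ciart, Bhlhe40 and Usp2 lie lower at CT2 in both genotypes, Nr1d1 lies higher with its 2 libraries far apart, and Arntl lies between 3.16 and 3.83 FPKM in ΔRRE at both times.

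Among the activators and RRE-controlled genes, Cry1 had the largest change in size. Arntl (*Bmal1*) measured 10.3 and 11.2 FPKM at CT22 and 12.6 and 13.2 FPKM at CT2 in WT. In ΔRRE it measured 3.83 and 3.29 FPKM at CT22 and 3.58 and 3.16 FPKM at CT2. The WT libraries did not overlap and the ΔRRE libraries did, and the log2 change was 0.26 in WT and -0.08 in ΔRRE (SE 0.16 each). The difference between them, -0.34 (SE 0.23), had an adjusted p of 0.996 in limma's test. The list of activators and RRE genes held 7 genes, of which 6 were tested: 3 were higher and 3 lower, with a median of -0.00226. Clock, Npas2 and Rora had log2 changes of -0.03, 0.03 and -0.10, and their libraries overlapped in both genotypes. Rorb was listed at 0 FPKM in each of the 8 libraries.

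Nfil3, the gene of the D-box repressor E4BP4, was higher at CT2 in WT, at 27.8 and 27.6 FPKM against 22.8 and 16.0 FPKM. In ΔRRE its libraries overlapped, with 27.02 and 31.3 FPKM at CT22 and 27.5 and 27.3 FPKM at CT2. The difference between the genotypes was -0.62 (SE 0.26), with an adjusted p of 0.996 in limma's test. Cry1 was the only one of the 6 with an unadjusted p under 0.05. It measured 16.4 and 16.3 FPKM at CT22 and 7.33 and 8.10 FPKM at CT2 in WT, and 14.2 and 18.5 against 6.63 and 13.6 FPKM in ΔRRE, a log2 change of -0.92 (SE 0.21). The RRE core TAGGTCA, on either strand, was found in the promoter windows of 2 of the 7 genes, Arntl and Nfil3, against 2.97% of all genes in the table. This list was put together from activators and RRE-controlled genes, so the share is not independent of that choice. The match in Arntl lies just downstream of the start. Whether it is part of the deleted stretch was not tested.
Arntl (chr7:113207531-113207557, forward strand): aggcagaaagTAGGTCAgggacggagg
Nfil3 (chr13:52981035-52981061, reverse strand): cgctcggaacTGACCTActaacacaca

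Both genotypes were compared gene by gene. In 937 genes (8.33%), both libraries of CT2 lay above both of CT22 in each genotype, and in 291 (2.59%) they lay below in each. In 463 genes (4.12%) the libraries separated in opposite directions in the genotypes. With 2 libraries against 2, some genes separate without any change, and the counts were not tested against that. They were made on the deposited scale, on which all genes together were shifted up at CT2 by a median of 0.08, and not after rescaling. None of the 11244 genes (0%) had a change that differed between the genotypes at an adjusted p under 0.05. The smallest limma adjusted p was 0.0634. When 1 FPKM was added in place of 0.1, 4 genes were called for a difference. At an unadjusted p under 0.05, the change differed in 481 genes (4.28%). Within WT alone 2 genes were called, Gm26712 and Zfp260, and within ΔRRE 2, Gm26712 and Pcmtd1. Zfp260 lost its call with 1 or 0.01 FPKM added in place of 0.1. It also lost it with a mean of at least 5 FPKM or with the replicate number as a block. Pcmtd1 lost its call under the block and with the prior without trend. Both genes also lost their calls whichever single library was left out. With all 24 libraries in 1 model, 0 genes were called within WT and 0 within ΔRRE. Of the 815 genes with an unadjusted p under 0.05 in WT, 66.3% had the same sign in ΔRRE, and of the 810 chosen in ΔRRE, 69.0% had the same sign in WT, against 59.2% of all genes. After rescaling these shares were 61.7%, 65.0% and 54.4%. The share depended on direction. Of genes chosen in WT and higher at CT2, 66.55% had the same sign in ΔRRE, against 68.3% of all genes higher in WT. Of those lower, 65.7% did, against 44.9%. After rescaling these were 50.4% against 53.7% and 72.25% against 55.15%. For genes chosen in ΔRRE, the deposited scale gave 73.2% against 66.0% (higher) and 60.15% against 47.5% (lower). Across genes, which are not independent replicates, the changes in WT and ΔRRE had a Pearson's r of 0.20.

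The 5 genes with the smallest p for a difference between the genotypes each separated in opposite directions. With 1 FPKM added in place of 0.1, 4 of them were called for this difference. They were Gm22036, Gm34654 and Zfp260 (limma adjusted p = 0.0317 each) and Pcmtd1 (0.0486). Zfp260, a zinc finger gene, went from 5.67 and 5.79 FPKM to 1.45 and 1.16 FPKM in WT and from 2.56 and 3.31 to 5.79 and 5.88 FPKM in ΔRRE (difference 3.04, SE 0.29, adjusted p = 0.0634). Pcmtd1 was at 7.51 and 8.42 FPKM at CT22 and 9.57 and 11.02 FPKM at CT2 in WT. In ΔRRE it was at 24.9 and 25.5 against 9.37 and 9.06 FPKM (difference -1.81, adjusted p = 0.0746). Fitm1, which encodes a protein of lipid droplet formation, was at 17.8 and 16.5 against 28.9 and 33.3 FPKM in WT and at 29.3 and 26.2 against 9.63 and 14.4 FPKM in ΔRRE (difference -2.08, adjusted p = 0.170). The other two, Gm34654 and Gm22036, lay between 0.462 and 9.89 FPKM and were higher at CT2 in WT and lower in ΔRRE.

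**Figure D3:**
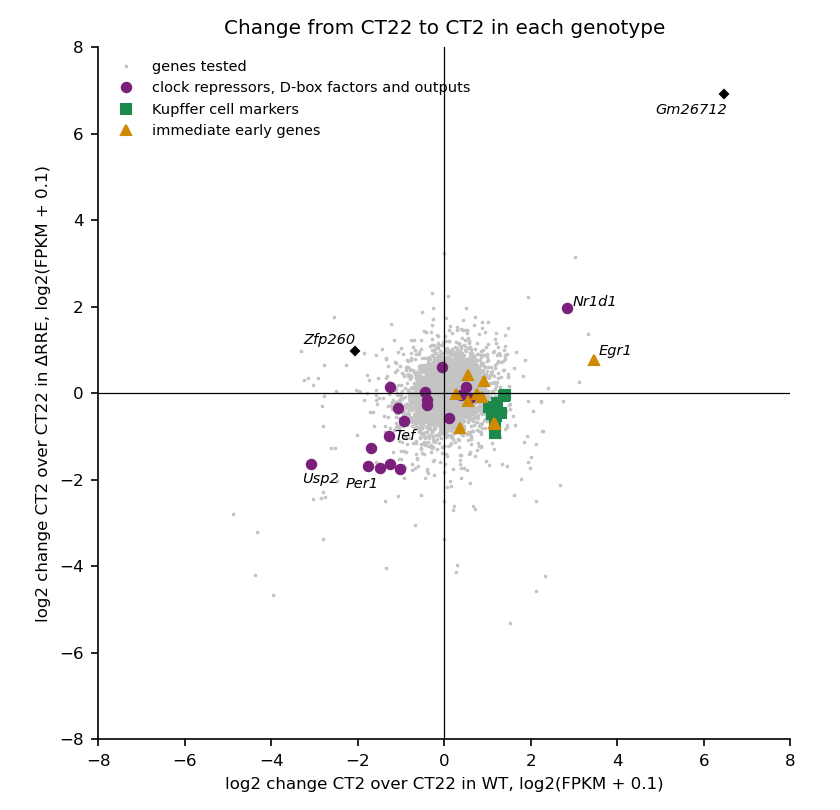
Log2 change from CT22 to CT2 of each of the 11244 genes in WT (x axis) and ΔRRE (y axis), on the scale of log2(FPKM + 0.1), with clock repressors, D-box factors and outputs, Kupffer cell markers and immediate early genes marked. Tef, Per1, Usp2 and Nr1d1 lie in the quadrants where both genotypes have the same sign, the Kupffer cell markers lie to the right of 0 in WT and below 0 in ΔRRE, and Gm26712 stands apart at the top right.

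Outside the clock, metabolic genes gave few large values, and no member of any list passed the adjusted p. Pck1, the rate-limiting enzyme of gluconeogenesis, measured 372 and 394 FPKM at CT22 and 236 and 143 FPKM at CT2 in WT, and 1067 and 930 against 468 and 259 FPKM in ΔRRE. CT2 lay below CT22 within each genotype, and the log2 change was -1.29 (SE 0.22, limma adjusted p = 0.173). G6pc, which releases the glucose, had a log2 change of -0.84 (SE 0.23). Of the 21 tested genes of the glucose list, 8 were higher, where 66.2% of all genes were, and 13 lower, with a median of -0.01. Cebpb, a transcription factor of the fasting and glucocorticoid response, went from 57.2 and 72.6 to 44.2 and 41.3 FPKM in WT and from 95.6 and 68.5 to 46.3 and 41.2 FPKM in ΔRRE (log2 change -0.74, SE 0.14). Of 14 genes of the glucocorticoid list, 1 was higher, where 66.2% of all genes were, and 13 were lower, with a median of -0.24 (-0.32 after rescaling). Under an unadjusted p of 0.05, 2 were lower (3.03% of all genes), and 5 without ΔRRE CT22 replicate 2. The median was -0.56 without ΔRRE CT22 replicate 2 and -0.14 without WT CT2 replicate 1. Without ΔRRE CT22 replicate 1, 5 of 14 were higher and the ΔRRE median was 0.16.

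In the fasting list Gadd45a, a stress-response gene, was higher at CT2, with 1.94 and 2.503 against 5.57 and 5.61 FPKM in WT and 2.23 and 3.296 against 3.68 and 5.56 FPKM in ΔRRE (log2 change 1.01, SE 0.21, limma adjusted p = 0.287). Of the 19 tested genes of that list, 7 were higher, where 66.2% of all genes were, and 12 lower, with a median of -0.03. Acot1, a PPARα target that cleaves acyl-CoA, was lower, from 14.0 and 15.5 to 10.8 and 7.85 FPKM in WT and from 12.9 and 16.8 to 11.9 and 8.23 FPKM in ΔRRE. Of 27 genes of the PPARα and ketogenesis list, 9 were higher and 18 lower, where 66.2% of all genes were higher. That count rested on single ΔRRE libraries: 17 of 27 were higher without ΔRRE CT2 replicate 2 and 13 without ΔRRE CT22 replicate 1, and 6 after rescaling. For 6 of the 27, WT and ΔRRE had unequal changes at an unadjusted p under 0.05, where 4.28% of all genes did, and in 2 of the 27 with all 24 libraries in 1 model. Examples are Acaa1b, a peroxisomal thiolase (0.44 in WT and -0.62 in ΔRRE), and Vnn1, a PPARα target (0.72 and -0.55).

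All 24 genes of cholesterol synthesis and its control had a positive log2 change, where 66.2% of all genes did, with a median of 0.26. After rescaling 23 of 24 were positive, where 50.1% of all genes were, with a median of 0.18. At an unadjusted p under 0.05, 3 were higher (7.48% of all genes), and 0 after rescaling (3.45%). Mvd, an enzyme of the mevalonate pathway, had the smallest p, with 9.02 and 7.47 against 12.2 and 18.5 FPKM in WT and 2.27 and 14.9 against 23.5 and 12.03 FPKM in ΔRRE, so that its ΔRRE libraries overlapped. The median rested on single ΔRRE libraries. With CT22 libraries left out, it was 0.08 with 15 of 24 positive without replicate 1, and 0.54 with 24 of 24 positive without replicate 2. With CT2 libraries left out, it was 0.17 with 20 of 24 positive without replicate 1, and 0.40 with 24 of 24 positive without replicate 2. In fatty acid synthesis, 13 of 19 genes were higher, near the 66.2% of all genes, with a median of 0.14. Acss2, which makes acetyl-CoA from acetate, measured 50.6 and 63.9 against 106 and 107 FPKM in WT, and 48.3 and 91.6 against 96.3 and 76.9 FPKM in ΔRRE. Its log2 change was 0.64 (SE 0.21). Bile acid genes were higher in 11 of 18, amino acid and urea cycle genes in 18 of 28, and xenobiotic genes in 14 of 24, shares at or below the 66.2% of all genes, and after rescaling their medians were -0.04, 0.03 and -0.02.

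Of 20 heat shock genes, 12 were higher, below the 66.2% of all genes, with a median of 0.04 (-0.04 after rescaling). At an unadjusted p under 0.05, 4 were higher (7.48% of all genes) and 1 lower (3.03%). Hspa8, the constitutive HSC70, measured 201 and 150 against 205 and 357 FPKM in WT and 154 and 163 against 280 and 310 FPKM in ΔRRE (log2 change 0.77, SE 0.17). The inducible Hspa1b had a log2 change of 1.08 and the small heat shock gene Hspb1 of -0.94. Hspa1b shares most of its sequence with Hspa1a, and how reads that match both were shared is not given in the sources used here. Rbm10, the only one of 4 cold-inducible or related RNA-binding genes with an unadjusted p under 0.05, measured 7.16 and 6.74 against 8.47 and 10.8 FPKM in WT and 5.98 and 6.77 against 9.83 and 11.3 FPKM in ΔRRE. In the ER folding list 18 of 24 genes were higher, where 66.2% of all genes were. Manf, an ER stress-induced secreted factor, measured 41.9 and 39.6 against 58.9 and 71.8 FPKM in WT and 50.6 and 32.4 against 51.2 and 104 FPKM in ΔRRE. Of 27 proteasome genes 25 were higher (66.2% of all genes), with a median of 0.15, and 19 after rescaling (50.1% of all genes), with a median of 0.07. The median was 0.09 without WT CT2 replicate 1. With an unadjusted p under 0.05, 2 were higher, 0 after rescaling (3.45% of all genes), 5 with all 24 libraries in 1 model, 7 without WT CT2 replicate 2, 5 without ΔRRE CT2 replicate 1 and between 1 and 3 without each of the others, and 7.48% of all genes were. Ribosome biogenesis, splicing, and autophagy and lysosome genes had medians of 0.09, 0.01 and 0.04.

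The immediate early genes, which respond to acute stimuli, had different medians in the genotypes. Of 10, 9 were higher at CT2 in the pooled fit, where 66.2% of all genes were (50.1% after rescaling). The median was 0.81 for WT and -0.06 for ΔRRE. The change differed at an unadjusted p under 0.05 in 4, where 4.28% of all genes did. Single libraries weighed on these values: without WT CT22 replicate 1 the WT median was 0.46 and 6 of 10 were higher, and without WT CT22 replicate 2 the WT median was 1.29. Without WT CT2 replicate 2 also 6 of 10 were higher. The ΔRRE median was 0.04 without ΔRRE CT2 replicate 2. It was -0.18 without ΔRRE CT22 replicate 1 and -0.18 without ΔRRE CT22 replicate 2. The count of 4 was 2 with all 24 libraries in 1 model and between 2 and 5 without 1 library. Junb had a log2 change of 1.15 in WT and -0.70 in ΔRRE, and Egr1 of 3.45 and 0.77. Zfp36, an mRNA-decay factor, measured 12.2 and 14.6 against 21.7 and 29.6 FPKM in WT and 16.9 and 20.7 against 21.4 and 23.9 FPKM in ΔRRE. Of 19 acute-phase genes, 0 had an unadjusted p under 0.05, and WT and ΔRRE had medians of 0.21 and -0.20.

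The labelled tissue was checked against its markers. Albumin (Alb) was between 24313 and 30814 FPKM in each of the 8 libraries, and the 10 hepatocyte markers had a median change of -0.01. Markers of sinusoidal endothelium were higher at CT2 in 10 of 10, where 66.2% of all genes were, with a median of 0.50. The WT median of 0.55 was 0.24 without WT CT2 replicate 2, 0.28 without WT CT22 replicate 1 and 0.82 without WT CT22 replicate 2, and the ΔRRE median of 0.50 was 0.30 without ΔRRE CT22 replicate 1. At an unadjusted p under 0.05 there were 5, where 7.48% of all genes were higher (4 after rescaling, and 2 without WT CT2 replicate 2 or without WT CT22 replicate 1). Their sum went from 35.3 and 49.0 to 50.1 and 68.3 FPKM in WT and from 37.8 and 56.0 to 60.4 and 64.3 FPKM in ΔRRE. The most abundant, Clec4g, had a log2 change of 0.53, and Oit3 of 0.76. In bulk tissue, more cells of a type and more RNA per cell cannot be told apart.

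The 12 Kupffer cell markers had a median of 1.19 in the WT and of -0.41 in the ΔRRE fit, and the difference had an unadjusted p under 0.05 in 6 of the 12, where 4.28% of all genes did. The WT median was 0.42 without WT CT22 replicate 1 and 2.00 without WT CT22 replicate 2, and the ΔRRE median was -0.23 without ΔRRE CT22 replicate 1. Their sum was 39.5 and 108 FPKM at CT22 and 108 and 201 FPKM at CT2 in WT, and 126 and 99.9 against 80.7 and 91.3 FPKM in ΔRRE. In WT, replicate 2 was the higher at both times, and the sums were 107.6 FPKM in replicate 1 of CT2 and 107.99 FPKM in replicate 2 of CT22. The count of 6 became 2 without WT CT22 replicate 1, 0 without WT CT2 replicate 2, 11 without WT CT22 replicate 2 and between 1 and 8 without each of the others. In the pooled fit 12 of 12 markers were higher, where 66.2% of all genes were, and 3 of 12 without WT CT22 replicate 1. That fit averages the genotypes, whose medians had opposite signs. The most abundant marker, Lyz2, measured 10.3 and 18.7 against 19.4 and 45.8 FPKM in WT. The part of these cells in the values of the immediate early and acute-phase genes was not tested. The 5 tested globin and other erythroid genes were lower in 5 of 5, where 66.2% of all genes were higher, with a median of -0.62. Their sum lay between 872 and 1561 FPKM at CT22 and between 537 and 1221 FPKM at CT2. The median was -0.35 without ΔRRE CT2 replicate 2 and -0.88 without ΔRRE CT2 replicate 1, and these left a ΔRRE median of -0.01 and -1.28. Without WT CT22 replicate 1 the WT median was -0.16, and without WT CT22 replicate 2 it was -1.01.

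The 7 stellate markers had a median of 0.18, and 3 of the cholangiocyte markers passed the filter with a median of 0.28, of which Spp1 was the most abundant. Of the lymphocyte and neutrophil markers, the T cell gene Cd3e stayed below 1 FPKM in each library, and S100a9 lay between 0 and 2.86 FPKM. Markers of pancreas, fat and muscle such as Pnlip, Adipoq and Ckm were listed at 0 FPKM in all 8 libraries. Cela1 was at 20.7 to 34.6 FPKM, while the pancreatic genes Cpa1, Prss2 and Amy2a5 were also listed at 0.

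**Figure D4:**
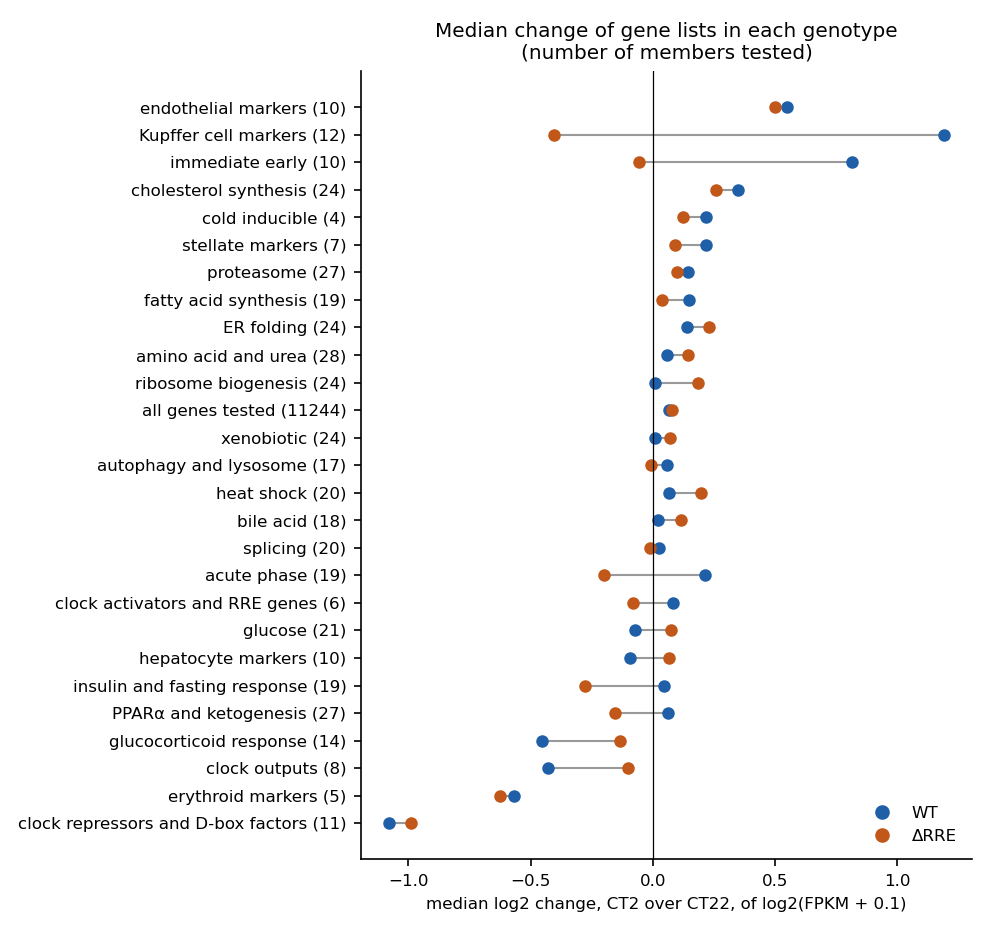
Median log2 change from CT22 to CT2 (x axis) of the tested members of 26 gene lists and of all genes tested, for WT and ΔRRE separately, with the number of members in brackets. Clock repressors and D-box factors lie near -1 in both genotypes, erythroid markers at -0.57 in WT and -0.63 in ΔRRE (the latter -0.01 without ΔRRE CT2 replicate 2), endothelial markers at 0.55 in WT (0.24 without WT CT2 replicate 2) and 0.50 in ΔRRE, and Kupffer cell markers and immediate early genes are far apart between the genotypes.

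Genes whose libraries separated in the same direction in both genotypes were ranked by smallest p, a choice made after the values were seen. Left out were symbols of the form Gm plus digits or ending in Rik, and those holding -ps or starting with Snor or Mir. Pisd-ps1 (log2 change -0.96, limma adjusted p = 0.0975) was left out by its name. The genes higher at CT2 were of varied function. Cks1b, a subunit that binds cyclin-dependent kinases, went from 3.53 and 2.79 to 5.68 and 5.82 FPKM in WT and from 3.79 and 3.37 to 6.37 and 8.01 FPKM in ΔRRE (log2 change 0.92, SE 0.13, limma adjusted p = 0.133). Tapbp, the tapasin of the class I peptide-loading complex, went from 12.4 and 14.8 to 27.2 and 22.1 FPKM in WT and from 11.6 and 16.2 to 25.1 and 24.1 FPKM in ΔRRE (log2 change 0.85, SE 0.13). A class I gene, H2-Q7, and the lectin gene Lgals9 had smaller log2 changes of 0.52 and 0.44. Hectd2os, named as an antisense transcript and called without ΔRRE CT2 replicate 1, measured 15.8 and 20.1 against 49.4 and 45.5 FPKM in WT and 26.1 and 20.1 against 31.1 and 50.04 FPKM in ΔRRE. Galt (galactose metabolism), Uros (haem synthesis), Ces2e (a carboxylesterase), Rab13, Clint1 and Srp68 (membrane traffic and secretion), Eif1a (translation initiation), Tyw5 and BC002059 made up the rest of the 15, with Gadd45a, and had log2 changes between 0.46 and 1.06.

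Of the 15 lower genes chosen in the same way, 4 have been described among the clock genes and outputs (Tef, Per1, Bhlhe40 and Usp2), with Pck1 and Cebpb among the metabolic genes. Ces1d, a carboxylesterase abundant in hepatocytes, measured 442 and 449 against 304 and 324 FPKM in WT and 413 and 420 against 298 and 286 FPKM in ΔRRE, with no overlap in either genotype. Its log2 change was -0.51 (SE 0.07, limma adjusted p = 0.126), and it was called after rescaling. Mup13, a major urinary protein, had a log2 change of -0.50, and Col27a1, a collagen gene, of -0.67. Serpine2, Slc25a51 (the mitochondrial NAD carrier), Simc1, Cabyr, Hist1h4h and Ctcflos completed the list, with log2 changes between -1.45 and -0.65. Ces1d, Ces2e, Mup13, H2-Q7 and Hist1h4h belong to families of similar genes, Hectd2os and Ctcflos are named as transcripts opposite another gene, and reads shared with relatives or the other strand leave their values uncertain.

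Gm26712 (ENSMUSG00000097656) was the called gene. GENCODE M21 lists it as a transcribed unprocessed pseudogene at chr6:57689433-57689649 of GRCm38 on the reverse strand, wholly inside exon 2 of the protein-coding gene Pyurf (chr6:57686576-57692078, same strand). It measured 0.252 and 0.374 FPKM at CT22 and 34.2 and 37.9 FPKM at CT2 in WT, and 0.189 and 0.228 against 33.8 and 40.05 FPKM in ΔRRE. The log2 change was 6.68 (SE 0.16, limma adjusted p = 1.6e-07). Over the whole series it was between 20.2 and 40.05 FPKM in 7 libraries and between 0.169 and 0.374 FPKM in the other 17, with 0 in between. Besides the 4 libraries of CT2, the 7 held WT CT10 replicate 2, WT CT18 replicate 1 and ΔRRE CT10 replicate 2, whose partner replicates were among the 17. Pyurf itself lay between 4.11 and 6.83 FPKM in the 7 libraries and between 5.09 and 8.87 FPKM in the 17. With all 24 libraries in 1 model, in which those replicates widen the spread, the adjusted p of Gm26712 was 0.158.

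**Figure D5:**
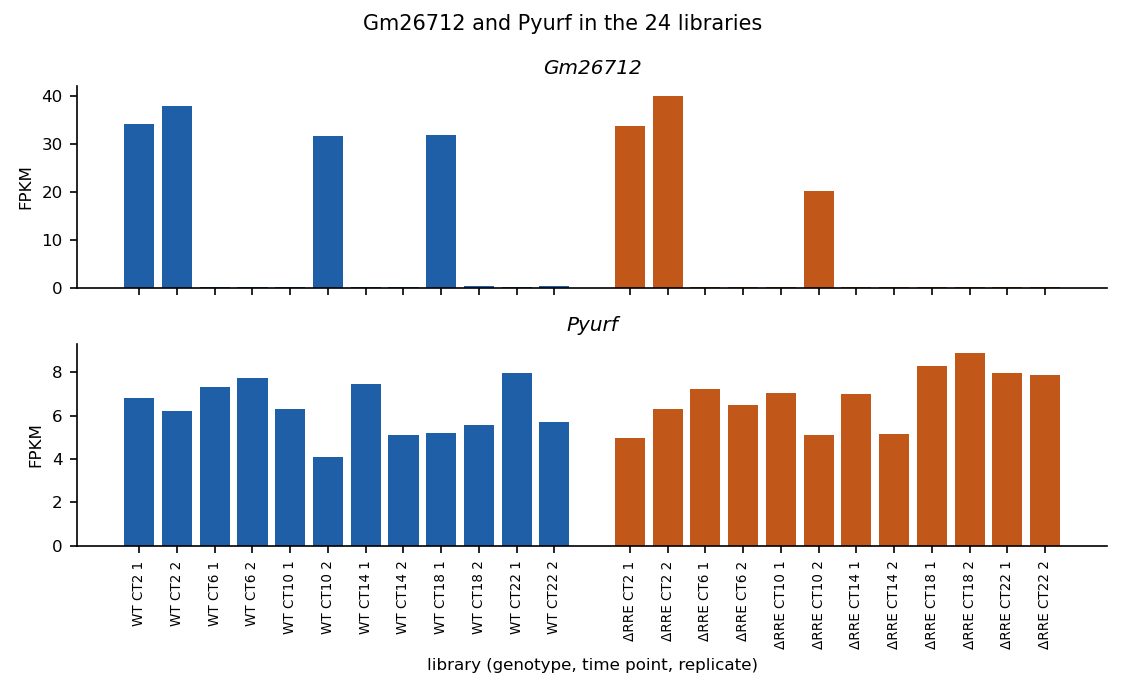
FPKM (y axes, linear and starting at 0) of Gm26712 (top) and of Pyurf, whose exon contains it (bottom), in each of the 24 libraries (x axis), WT and ΔRRE in separate blocks. Gm26712 is above 20 FPKM in the 4 libraries of CT2 and in 3 libraries of CT10 and CT18, and below 0.4 FPKM in the other 17, while Pyurf stays between 4.11 and 8.87 FPKM.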

How the data were processed

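Livers of 2 mice per genotype and time were measured by sequencing of poly(A) RNA with a directional library kit. The authors deposited 1 FPKM value per gene and library. The submitters' processing notes name Trimmomatic 0.39, HISAT2 2.1.0, StringTie 1.3.5 and build mm10, without roles. A joint table of the series was not used. FPKM keeps no depth, so the read number behind a value is unknown.

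Groups came from sample titles. Values were analysed as log2(FPKM + 0.1) for the 11244 genes averaging 1 FPKM or more across the 24 libraries, with limma 3.58.1 in R 4.3.3 (intensity-dependent prior, genotype and time as terms, Benjamini-Hochberg adjustment over all tested genes). The scripts were tested on simulated data. Differences between genotypes came from a model of the 4 groups. Alternatives changed the constant, filter, scale, prior, threshold, block and libraries. Members and gene lists were chosen with earlier results of these data known. Named were Arntl, all core clock genes, called genes, the member with the smallest p in each list, and the 5 genes with the smallest interaction p. Further genes were picked after the values were seen. They were Gm26712, Pyurf, the other list members given with values, and 15 genes in each direction. These 15 had the smallest p among genes that met the rules on separation and symbols given above. Motifs were searched in RefSeq promoters (GRCm38.p6). Gene positions are from GENCODE M21. Some genes are not reported here.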

Additional observations from a re-analysis of the deposited data

Results flagged for a closer look

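Among the 4 libraries of a time point, single libraries stood apart by Dixon's criterion in 6 of 168 sets of values, where chance gives about 1 in 20. In ΔRRE CT2 replicate 1, Gadd45a was at 3.68 FPKM, below the other libraries of CT2. In WT CT22 replicate 2, Pyurf was at 5.69 FPKM and Simc1 at 3.56 FPKM, both below the other libraries of CT22. In ΔRRE CT22 replicate 2, Rora was at 9.68 FPKM, above the others. The summed hepatocyte markers were at 47483 FPKM in ΔRRE CT22 replicate 1, below the other libraries of CT22, and the summed stellate markers were at 141 FPKM in WT CT2 replicate 1, above the other libraries of CT2.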

How the results depend on the processing

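Genes called lower at CT2 numbered 0 in the reported fit, 4 after rescaling, 3 with all 24 libraries in 1 model, 3 at an adjusted p under 0.1, 2 with the replicate number as a block, 1 with the prior without trend and 1 without a filter. Genes called higher numbered 3 without a filter and 0 with all 24 libraries. Leaving out 1 library gave 1 to 2 higher and 0 to 3 lower, with 2 higher and 3 lower without ΔRRE CT2 replicate 1, where Hectd2os was called. Within WT, 2 calls became 64 without a filter, 6 at an adjusted p under 0.1, 0 with all 24 libraries, and 1 with a constant of 1 or 0.01 FPKM, with a mean of at least 5 FPKM or under the block, and 1 to 4 without 1 library. Of the genes called in WT, 50% had the same direction in ΔRRE, 15.6% without a filter, 33.3% at an adjusted p under 0.1, 66.7% with the prior without trend, 100% under the 4 settings that gave 1 call, and 25% to 100% without 1 library. Within ΔRRE, 2 calls became 50 without a filter, 0 with all 24 libraries, 1 under the block or with the prior without trend, and 1 to 4 without 1 library. Calls for a difference between the genotypes numbered 4 with a constant of 1 FPKM, 63 without a filter, 4 at an adjusted p under 0.1, and 0 to 3 without 1 library (3 without WT CT2 replicate 1 or WT CT22 replicate 1).

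At an unadjusted p under 0.05, genes higher at CT2 numbered 1384 without a filter, 388 after rescaling and 648 to 844 without 1 library. Genes lower at CT2 numbered 627 without a filter, 184 with a mean of at least 5 FPKM, 582 after rescaling and 262 to 377 without 1 library. Differences between the genotypes numbered 1432 without a filter, 269 with a mean of at least 5 FPKM and 448 to 625 without 1 library. The share with the same direction in the other genotype, for genes chosen in ΔRRE, was 61.1% without a filter, 72.9% with a mean of at least 5 FPKM, 65.0% after rescaling and 61.1% to 71.9% without 1 library. For genes chosen in WT it was 59.0% without a filter, 61.7% after rescaling, 69.6% with all 24 libraries and 58.3% to 66.5% without 1 library. Fewer or more genes enter without the filter or with a mean of at least 5 FPKM. For the other settings the cause was not tested.

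Some small pooled log2 changes turned sign. Npas2 was at -0.05 after rescaling. Without 1 library each, Npas2 ranged from -0.17 to 0.26, Clock from -0.18 to 0.093, Fitm1 from -0.43 to 0.14, Gm22036 from -0.86 to 0.43, Gm34654 from -0.20 to 0.68, and Nr1d2 from -0.13 to 0.74. The deviations of same-numbered libraries had r between -0.047 and 0.21, above 0.1 for WT CT2 with ΔRRE CT2 and with WT CT22 and not for every pair of groups. The numbers were therefore not taken as pairs, and with the block Tef was called (adjusted p = 0.0456 in limma's test). FPKM does not show what depth limits.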
